A study of Mus musculus with 12 samples.

Results

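The serotonergic transcription factors described here are Lmx1b, Gata2, Gata3, Insm1 and St18, 5 of the 18193 genes that the array's probe table names with a single symbol. They are a fixed list of symbols, chosen with earlier results of these data known. Every probe set that the table pairs with a listed symbol was included, with no filter on signal, which gave 9 probe sets. Pet-1 (Fev), the ETS factor that would complete the list, was not analysed here. RNA was taken from neural tube cells of mouse embryos at E12.5, all carrying ePet-EYFP, in which an enhancer of Pet-1 drives yellow fluorescent protein (YFP), and was hybridised to 12 Affymetrix Mouse 430 2.0 arrays. Cells from the rostral domain (between the mesencephalic and pontine flexures) and from the caudal domain (pontine flexure to spinal cord) were each sorted by YFP, the positive cells (serotonin neurons) giving R+ and C+ and the negative cells giving R- and C-. Each group had 3 biological replicates of 200000 sorted cells. YFP marks cells in which the Pet-1 enhancer is active, so R+ and C+ are chosen by the activity of one member of the same network, and R- and C- mix all other cells of the domain.

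Serotonin neurons arise from ventral hindbrain progenitors that have been exposed to Sonic hedgehog. As these cells leave the cell cycle, GATA zinc finger factors, the LIM homeodomain factor Lmx1b and the ETS factor Pet-1 are switched on, and together they activate the genes for making, storing and taking up serotonin. Mouse mutants have tied Gata2 to serotonin neuron formation, Gata3 mainly to caudal serotonin neurons and Lmx1b to serotonin neurons of the whole hindbrain. Insm1, a zinc finger repressor of newly born neurons and endocrine cells, is also needed for their normal development. St18 belongs to the Myt family of zinc finger factors, which act in neuronal differentiation.

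Values are MAS5 signals on a linear scale, which had been scaled to a common level, so that the mean without the lowest and highest 2% was 500 on every array. A probe set was kept if 3 or more arrays gave it a signal over 107, which is the median of all values. This held for 8 of the 9 member probe sets and for at least 1 of each member. Signals below are means ± SD over n = 3 arrays. Each difference is that of group means of log2(signal + 10), first-named group minus second, ± SE, with limma's p-value adjusted over all 26061 kept probe sets. Precision is limited by how few arrays there were. Each gene was called by its brightest kept probe set, here its reference probe set. The sort could be checked against 4 serotonin neuron markers, Tph2, Slc6a4, Ddc and Slc18a2, which were all higher in R+ and in C+. Their summed signal was 40329 to 42362 on the R+ arrays, 18549 to 22238 on C+, 1618 to 1937 on R- and 237 to 285 on C-. Tph2 stayed at or below 107 on all 3 arrays of R- and of C-. In R- none of the other markers did, with means of 1458 for Ddc, 138 for Slc18a2 and 103 for Slc6a4. In C- Slc6a4 and Slc18a2 did as well, and Ddc averaged 126. Nothing in the labels ties replicates to different litters, and the p-values then speak only of the spread among these samples, which may be technical. Because each array holds the RNA of many cells, more cells that express a gene and more RNA per cell cannot be told apart.

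In the rostral domain Lmx1b, Gata2 and Gata3 were higher in YFP-positive than in YFP-negative cells and St18 was lower, while Insm1 had nearly the same signal in both. That is 3 of 5 genes higher and 1 lower in R+ than in R-; over all 12845 genes 3.64% were higher and 6.83% lower. The R+ and R- arrays did not overlap for 4 of 5 genes, which was the case for 28.4% of all genes. In the caudal domain 4 genes were higher in C+ than in C-, now with Insm1, and St18 was again lower (4.81% of all genes were higher and 6.24% lower). For all 5 the C+ and C- arrays did not overlap, against 27.3% of all genes. The median difference of the 5 genes was 2.22 for R+ against R- and 2.76 for C+ against C-, beside -0.01 and -0.04 over all genes.

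**Figure D1:**
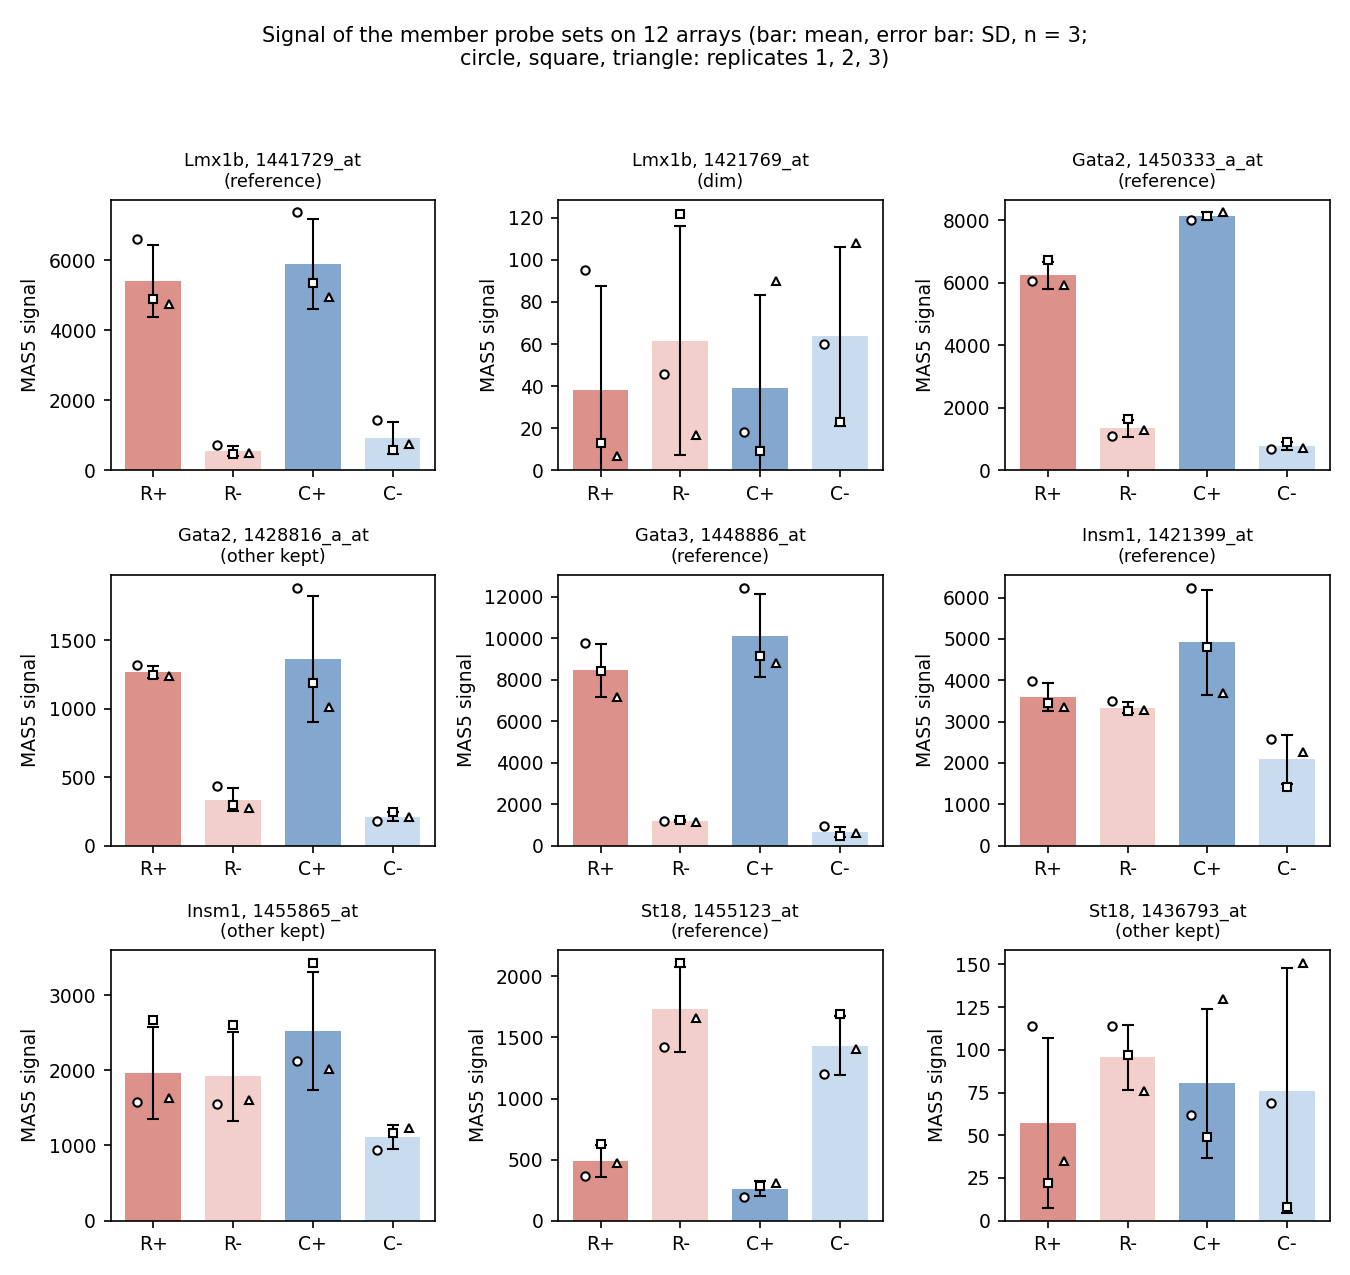
MAS5 signal (linear axis from 0) of each of the 9 member probe sets in R+, R-, C+ and C-; bars are means, error bars are SD over 3 arrays (lower arms end at the axis) and open symbols are single arrays. Lmx1b, Gata2 and Gata3 stand high in both YFP-positive groups, St18 in both YFP-negative groups, and Insm1 is lowest in C-; probe sets 1421769_at of Lmx1b and 1436793_at of St18 stay at or below 151 on all arrays.

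Lmx1b, a LIM homeodomain factor that serotonin neurons need to acquire and keep their transmitter genes, was read by probe set 1441729_at. Its signal was 6592, 4889 and 4758 on the R+ arrays and 715, 462 and 487 on the R- arrays, in the order of replicates 1 to 3. On the C+ arrays it was 7360, 5354 and 4956, and on the C- arrays 1429, 573 and 742. Every YFP-positive array lay above every YFP-negative array of either domain. The means were 5413 ± 1023 in R+ against 555 ± 139 in R-, and 5890 ± 1289 in C+ against 915 ± 453 in C-. The difference was 3.27 ± 0.29 between R+ and R- (adjusted p = 7.57e-06) and 2.76 ± 0.29 between C+ and C- (adjusted p = 2.85e-05). Only 0.215% of kept probe sets differed by more between R+ and R- in either direction.

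A second Lmx1b probe set, 1421769_at, did not show this. It is the probe set that the probe table pairs with a RefSeq transcript of Lmx1b, whereas the bright one is paired with an expressed sequence tag. It was dim on all arrays, at 7 to 95 in R+ against 17 to 122 in R-, and 9 to 90 in C+ against 23 to 108 in C-, and was not kept. Fitted among all probe sets without the filter, it differed by -0.76 ± 0.82 between R+ and R- (95% CI -2.51 to 0.99, limma adjusted p = 0.849) and by -0.79 ± 0.82 between C+ and C- (95% CI -2.54 to 0.96, adjusted p = 0.775). The result for Lmx1b therefore rests on 1 probe set.

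In the RefSeq annotation of GRCm38.p6 Lmx1b lies on the minus strand, and its span overlaps that of C130021I20Rik, a long noncoding RNA gene on the plus strand, by a few bases at the starts of both, from where the genes run apart. C130021I20Rik had nearly the same pattern. Its signal was 10601, 7265 and 7843 on the R+ arrays and 1385, 1144 and 1106 on the R- arrays. It was 10279, 6877 and 5621 on the C+ arrays and 1484, 1060 and 1015 on the C- arrays. As for Lmx1b, replicate 1 was the highest array in each of the 4 groups. It was 2.80 ± 0.22 higher in R+ than in R- (adjusted p = 3.04e-06) and 2.64 ± 0.22 higher in C+ than in C- (adjusted p = 3.91e-06). Over the 12 arrays its log2 signal correlated with that of Lmx1b at r = 0.977, the third highest of 7988 genes; the points share their arrays and fall into a high and a low cluster by YFP. Since the files give neither the strand nor the position of the probes, signal of either gene read by a probe set of the other was not tested.

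**Figure D2:**
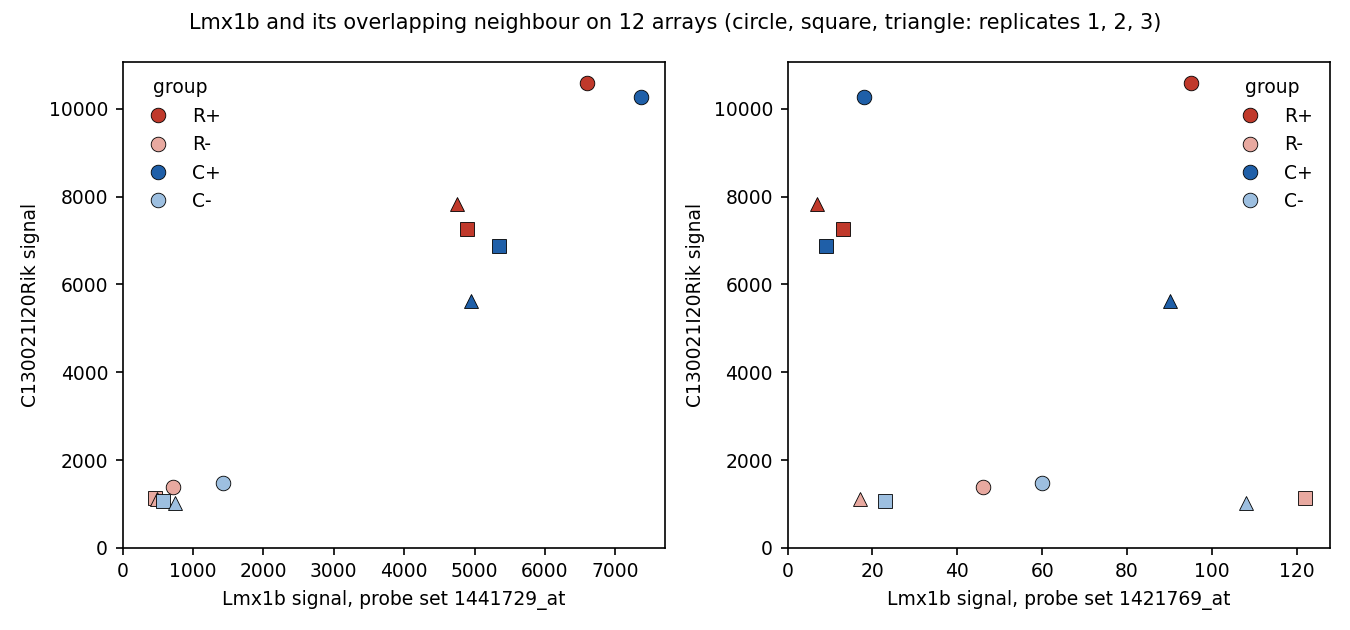
Signal of C130021I20Rik (vertical axis) against that of Lmx1b (horizontal axis) on each of 12 arrays, with the bright Lmx1b probe set 1441729_at on the left and the dim 1421769_at on the right; colour gives the group and shape the replicate. On the left the 6 YFP-positive arrays lie apart from the 6 YFP-negative arrays on both axes, and on the right the Lmx1b signal stays at or below 122 on all arrays.

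The bases upstream of the starts were searched because Lmx1b, Gata2 and Gata3 were high together in YFP-positive cells. The RefSeq promoter windows of GRCm38.p6 held 3 of the 5 members (Lmx1b, Gata3 and, with 2 starts, Gata2). In the 250 bases before each start, 4 kinds of motif were searched on both strands: a GATA site spelled as AGATAA, with variants of it in which the first base was T, the last base was G, or both, the ETS core GGAAGT, the homeodomain core TAATTA and the E-box CAGCTG. Of all 32851 windows of this length 26.5% held a GATA site, 19.7% the ETS core, 4.84% the homeodomain core and 13% the E-box. Among the 4 windows of the members the 1 match was an ETS core 65 to 60 bases before the start of Lmx1b that the table uses, which is shown with its surroundings because Pet-1 is an ETS factor; capitals mark the match. The stretch, chr2:33641146-33641175 on the minus strand, lies inside the annotated span of Lmx1b, whose outermost start is further upstream, and within the promoter window of C130021I20Rik on the other strand. The window before the more upstream start of Gata2, chr6:88193641-88193890 on the plus strand, is shown beside it as a member window without a match. A match of these letters describes the sequence and shows no binding.
Lmx1b: gttcaaatgtcaGGAAGTttgaggaggggt
Gata2: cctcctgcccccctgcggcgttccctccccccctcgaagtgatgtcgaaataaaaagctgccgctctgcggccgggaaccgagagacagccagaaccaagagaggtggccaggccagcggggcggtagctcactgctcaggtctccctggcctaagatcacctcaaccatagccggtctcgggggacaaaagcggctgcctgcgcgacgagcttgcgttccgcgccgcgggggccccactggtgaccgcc

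Gata2, a zinc finger factor that acts early in the serotonergic cascade and also in blood precursors, endothelium and some GABA neurons, was read by 2 kept probe sets that gave the same direction. By 1450333_a_at its signal was 6060, 6745 and 5949 in R+ and 1112, 1642 and 1301 in R-. It was 8003, 8130 and 8257 in C+ and 686, 912 and 713 in C-. The groups formed 4 separate levels with no overlap, C+ at the top, then R+, R- and C-. The difference was 2.22 ± 0.16 between R+ and R- (adjusted p = 1.01e-06) and 3.39 ± 0.16 between C+ and C- (adjusted p = 1.10e-08). The other probe set, 1428816_a_at, gave 1.91 ± 0.24 (adjusted p = 0.000153) and 2.60 ± 0.24 (adjusted p = 8.28e-06). Its means were 1270 ± 41.8 in R+ against 336 ± 86.3 in R-, and 1363 ± 462 in C+ against 211 ± 34.6 in C-, and here R+ and C+ overlapped.

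Gata3, the related factor tied to caudal serotonin neurons, had 1 probe set, 1448886_at. Its signal was 9768, 8426 and 7192 in R+ and 1188, 1249 and 1132 in R-. It was 12454, 9129 and 8832 in C+ and 927, 451 and 605 in C-. YFP-positive arrays were again all above YFP-negative ones, R+ and C+ overlapped, and R- lay above C- on every array. The difference was 2.81 ± 0.22 between R+ and R- (adjusted p = 2.94e-06) and 3.96 ± 0.22 between C+ and C- (adjusted p = 7.96e-08). Only 0.13% of kept probe sets differed by more between C+ and C-. The mean signal was 7.11 times as high in R+ as in R- and 15.3 times as high in C+ as in C-.

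Gata2 and Gata3 also mark V2b interneurons and midbrain GABA neurons, so markers of those cells were read on the same arrays. Of 9 measured markers 7 were lower in R+ than in R- and 7 lower in C+ than in C-, with none higher. Tal1, a partner of GATA factors in these neurons, had a signal of 692 in R+ against 5672 in R- (difference -3.05 ± 0.20, adjusted p = 5.39e-07). In the caudal domain it was 351 in C+ against 1828 in C- (-2.34 ± 0.20, adjusted p = 3.53e-06). The summed signal of the list was 2189 to 2935 in R+ against 16140 to 19310 in R-, and 3699 to 4364 in C+ against 12531 to 15511 in C-. The markers that did not pass were Foxn4 (-1.29 ± 0.51) and Sox14 (-0.85 ± 0.33) between R+ and R-, and Tal2 (0.83 ± 0.50) and Gad1 (-0.17 ± 0.19) between C+ and C-. The part of these cells in the signal of Gata2 and Gata3 was not tested. Gata1, the red cell member of the family, and Gata4, Gata5 and Gata6 had mean signals of 39.3 to 101 in every group and were not kept.

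Insm1, a zinc finger repressor expressed as neurons are born, was the member whose YFP difference was seen in 1 domain. By probe set 1421399_at its signal was 3981, 3447 and 3349 in R+ and 3488, 3245 and 3280 in R-, and these ranges overlapped. In the caudal domain it was 6243, 4813 and 3700 in C+ and 2576, 1418 and 2262 in C-, with no overlap. The difference was 0.10 ± 0.22 between R+ and R- (95% CI -0.36 to 0.57, adjusted p = 0.897) and 1.25 ± 0.22 between C+ and C- (adjusted p = 0.00205). Without the replicate 2 arrays the caudal difference did not pass (adjusted p = 0.083). The second probe set, 1455865_at, gave 0.03 ± 0.26 (95% CI -0.54 to 0.59, adjusted p = 0.983) and 1.14 ± 0.26 (adjusted p = 0.0141). Its means were 1958 ± 612 in R+ against 1920 ± 589 in R-, and 2522 ± 789 in C+ against 1112 ± 156 in C-. Its caudal call was lost without replicate 1 of C- (adjusted p = 0.058), without replicate 2 of C+ (adjusted p = 0.077) and without all replicate 3 arrays (adjusted p = 0.107).

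Other genes of newly born neurons were read beside Insm1. Of 10 such markers 9 were lower in R+ than in R- and 7 lower in C+ than in C-, with none higher. The proneural factor Neurog2 had a signal of 267 in R+ against 2578 in R- and of 169 in C+ against 1735 in C-. Neurod1, which promotes neuronal differentiation, had 320 against 2562 and 219 against 2059. The summed signal was 7740 to 8450 in R+ against 24933 to 26611 in R-, and 10971 to 11856 in C+ against 18920 to 21345 in C-. The Notch ligands Dll1 and Dll3 were lower in R+ (-1.39 ± 0.15 and -1.16 ± 0.17) but differed by -0.29 ± 0.15 and 0.17 ± 0.17 between C+ and C- (adjusted p = 0.325 and 0.657). Of the Insm1 corepressor partners, Rcor2 was lower in both domains (-1.05 ± 0.23 and -0.95 ± 0.23, adjusted p = 0.0126 and 0.0216). The shared subunits Kdm1a (-0.01 ± 0.18), Hdac1 (-0.40 ± 0.19) and Hdac2 (0.01 ± 0.13) did not pass between R+ and R-, although Hdac1 did with the replicate number as a block (adjusted p = 0.0227).

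St18 was the member that ran the other way. By probe set 1455123_at its signal was 365, 629 and 470 in R+ and 1421, 2112 and 1656 in R-. It was 191, 282 and 307 in C+ and 1203, 1689 and 1408 in C-. Every YFP-negative array lay above every YFP-positive array, and C+ lay below R+ on all arrays. The difference was -1.82 ± 0.24 between R+ and R- (adjusted p = 0.000252) and -2.43 ± 0.24 between C+ and C- (adjusted p = 1.64e-05). Within replicate numbers its difference was -1.93 to -1.73 rostrally and -2.59 to -2.16 caudally.

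The second St18 probe set, 1436793_at, was dim, at 8 to 151 over the 12 arrays, and exceeded 107 on 1 array of each group. It gave -0.89 ± 0.75 between R+ and R- (95% CI -2.51 to 0.73, adjusted p = 0.648) and 0.46 ± 0.75 between C+ and C- (95% CI -1.16 to 2.08, adjusted p = 0.82). When the probe sets of each gene were averaged, St18 differed by -0.99 between C+ and C- and no longer passed (limma adjusted p = 0.0741). Of its relatives on the array, Myt1 and Myt1l were measured. Myt1 stood at 2438 in R+ against 2639 in R-, and at 2317 in C+ against 2924 in C-, with differences of -0.10 ± 0.17 and -0.35 ± 0.17 (adjusted p = 0.864 and 0.278). Myt1l was 0.55 ± 0.15 higher in R+ than in R- (adjusted p = 0.0449) and differed by -0.46 ± 0.15 between C+ and C- (adjusted p = 0.0941, and 0.0128 with the replicate number as a block).

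**Figure D3:**
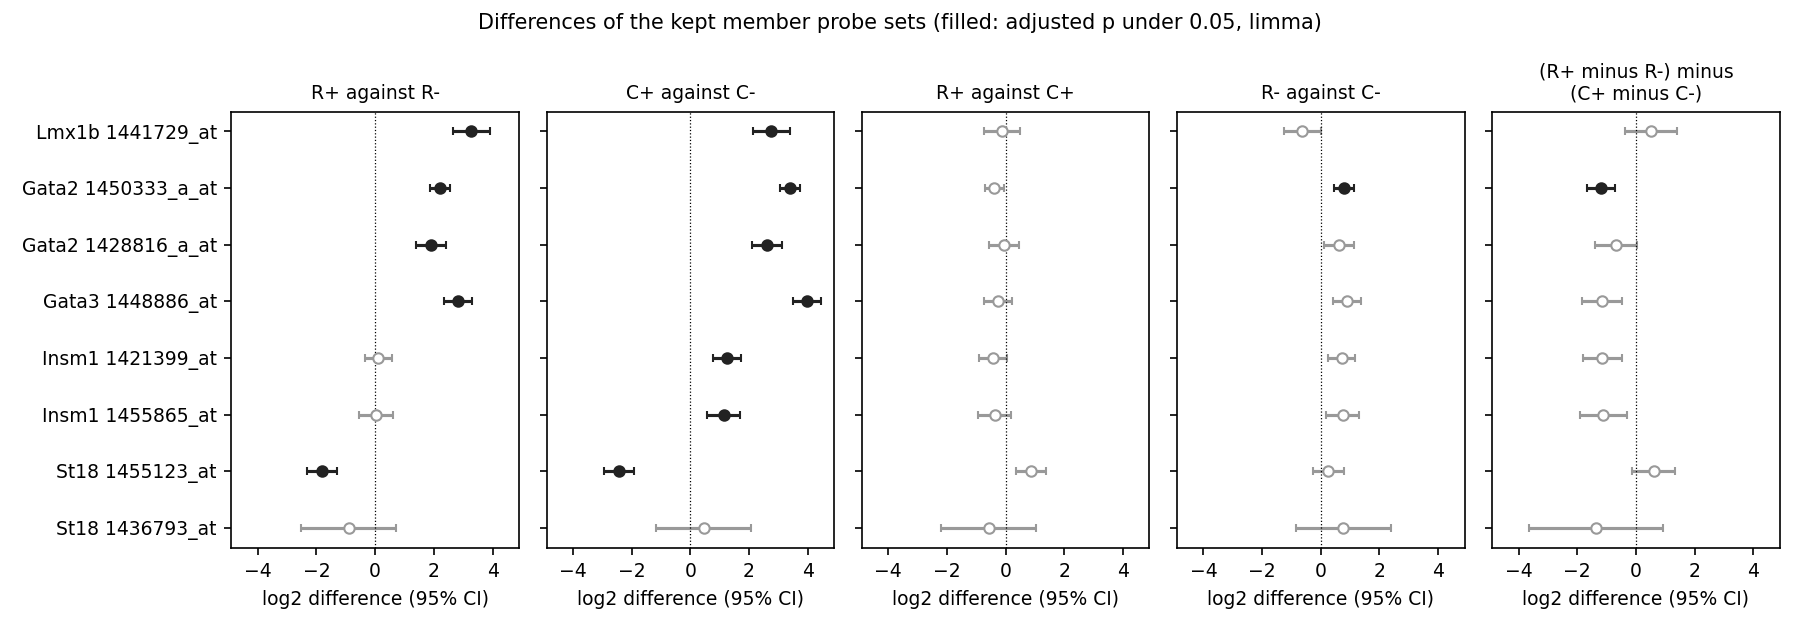
Log2 differences with 95% confidence intervals (horizontal axis) of the 8 kept member probe sets in 5 comparisons. Filled circles have an adjusted p under 0.05 (limma, without the replicate number as a block). Lmx1b, Gata2 and Gata3 are filled on the positive side in both YFP comparisons and St18 1455123_at on the negative side; no probe set is filled for R+ against C+, and Gata2 1450333_a_at alone is filled for R- against C- and for the difference of differences.

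Rostral and caudal serotonin neurons were then compared directly. None of the 5 genes passed between R+ and C+, where 1.79% of all genes were higher and 3.08% lower in R+. Lmx1b differed by -0.12 ± 0.29 (95% CI -0.74 to 0.51, adjusted p = 0.88), Gata3 by -0.25 ± 0.22 (95% CI -0.73 to 0.23, adjusted p = 0.594) and Insm1 by -0.42 ± 0.22 (95% CI -0.89 to 0.04, adjusted p = 0.308). The arrays of R+ and C+ did not overlap for 2 genes, Gata2 and St18 (26.0% of all genes). Gata2 was -0.38 ± 0.16 (adjusted p = 0.201) by its brighter probe set and -0.05 ± 0.24 (adjusted p = 0.941) by the other. St18 was 0.88 ± 0.24 (adjusted p = 0.0608). With the replicate number as a block these became adjusted p = 0.0297 for Gata2 and 0.000814 for St18, so that 1 of 5 genes was lower and 1 higher in R+, where the block called 10.9% of all genes lower and 8.45% higher. With the beta-actin ratio described next as a covariate St18 differed by 1.40 (adjusted p = 0.053). It passed without the replicate 1 arrays (0.86, adjusted p = 0.017) and with 1 probe set per gene in the fit (adjusted p = 0.0358). With the mean of its probe sets it differed by 0.15 (adjusted p = 0.852), and its dim probe set alone gave -0.58 ± 0.75 (adjusted p = 0.742).

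Measures of RNA quality also differed between arrays. For beta-actin, signal at the 3' end divided by signal at the 5' end ran from 2.64 to 4.39 over rostral arrays and from 4.52 to 7.69 over caudal ones. In R+ it was 3.24 ± 0.52 and in R- 3.52 ± 0.78, and in C+ 5.79 ± 1.20 and in C- 5.75 ± 1.69, so that the rostral and caudal arrays did not overlap. The same ratio for Gapdh was 1.15 to 2.14 over rostral arrays and 1.54 to 4.63 over caudal ones, which overlap. Its mean was 3.20 ± 1.52 in C+ and 2.03 ± 0.48 in C-, with C+ above C- in all 3 replicates, and 1.38 ± 0.28 in R+ and 1.49 ± 0.57 in R-. The beta-actin ratio was used as a covariate. Because it did not overlap between the domains, its part and that of the domain cannot be told apart in this way. The part of Gapdh was not tested.

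Among YFP-negative cells Gata2 was higher in the rostral domain. Its difference between R- and C- was 0.80 ± 0.16 (adjusted p = 0.0194), the 1 member of 5 that passed, where 0.802% of all genes were higher and 1.29% lower in R-. The second Gata2 probe set gave 0.63 ± 0.24 (adjusted p = 0.296). For Gata2, Gata3 and Insm1 the R- and C- arrays did not overlap, 3 of 5 genes against 19.2% of all genes. Gata3 differed by 0.90 ± 0.22 (adjusted p = 0.0732) and Insm1 by 0.72 ± 0.22 (adjusted p = 0.156). Lmx1b was on the other side at -0.63 ± 0.29 (adjusted p = 0.42), and St18 differed by 0.26 ± 0.24 (adjusted p = 0.736). With the block 4 of 5 passed: Gata2 (adjusted p = 0.000615), Gata3 (0.00338), Insm1 (0.0156) and, lower in R-, Lmx1b (0.0172). The block called 3.44% of all genes higher and 4.77% lower in R-. The call of Gata2 was lost with the beta-actin covariate (0.90, adjusted p = 0.0698) and with R- and C- fitted alone (adjusted p = 0.118). It was also lost without replicate 1 of C- (adjusted p = 0.0858), replicate 2 of R- (0.0673), replicate 3 of R- (0.0755) or replicate 3 of C- (0.0986), and without all replicate 2 (0.155) or replicate 3 arrays (0.644).

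Markers of other cells moved with this comparison as well. Tal1 was 1.63 ± 0.20 higher in R- than in C- (adjusted p = 0.000407), and Tal2, a midbrain GABA neuron factor, averaged 1093 in R- against 29.7 in C- (4.92 ± 0.50, adjusted p = 9.1e-05). Of the 9 markers of V2b and midbrain GABA neurons 3 were higher in R- and 0 lower. Of the 4 serotonin neuron markers Ddc, the decarboxylase of serotonin and dopamine synthesis, was 1458 in R- and 126 in C- (3.43 ± 0.14), and Slc18a2, the vesicular monoamine transporter, was 138 and 69.7 (0.89 ± 0.18); both passed, and with the block Slc6a4 did as well (1.41 ± 0.33, adjusted p = 0.0572, with the block 0.0094). Of 5 dorsal excitatory neuron markers, which include other Lmx1b-expressing cells, 2 were lower in R- (Lbx1 at -1.85 ± 0.29 and Pou4f1 at -1.28 ± 0.22) and none higher. Their summed signal was 4894 to 6027 in R- and 11543 to 12692 in C-. Of 4 midbrain dopamine neuron markers, another type that expresses Lmx1b, 1 was higher in R- (Nr4a2 at 1.61 ± 0.19) and 0 lower, and their summed signal was 3981 to 6620 in R- and 1630 to 1814 in C-. The part of these cells in the members' differences was not tested.

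The YFP difference was therefore set against itself between domains, as (R+ minus R-) minus (C+ minus C-). Gata2 was the 1 member of 5 that passed, at -1.18 ± 0.22 (adjusted p = 0.0291). Of all genes 0.304% passed with a positive and 0.514% with a negative value. Within replicate numbers its difference was 2.03 to 2.44 rostrally and 3.14 to 3.53 caudally. Gata3 (-1.15 ± 0.32, adjusted p = 0.218) and Insm1 (-1.14 ± 0.30, adjusted p = 0.196) had values of nearly the same size but did not pass, and with the block they did (adjusted p = 0.0147 and 0.0188, and 0.000986 for Gata2). The block called 0.926% of all genes with a positive and 1.28% with a negative value. Lmx1b was at 0.51 ± 0.41 (95% CI -0.37 to 1.40) and St18 at 0.61 ± 0.34 (95% CI -0.12 to 1.34), neither of which passed. The second probe sets gave -0.68 ± 0.34 for Gata2 (adjusted p = 0.956) and -1.11 ± 0.37 for Insm1 (adjusted p = 0.465). With the block that of Insm1 passed (adjusted p = 0.00965). The call of Gata2 was lost when any R+ array, replicate 2 or 3 of R-, replicate 2 or 3 of C+, or replicate 1 or 3 of C- was left out (adjusted p = 0.0618 to 0.109), and without all replicate 2 (0.319) or replicate 3 arrays (1). It was lost too with equal median signal (adjusted p = 0.0629), with eBayes without a trend (0.108) and with the mean of probe sets (-0.93, adjusted p = 0.059), which instead called Insm1 (-1.13, adjusted p = 0.0409).

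The genes around the members in the cascade were read from lists of their known roles. Over all genes 3.64% were higher and 6.83% lower in R+ than in R-. Between C+ and C- 4.81% were higher and 6.24% lower. Among 11 ventral patterning genes that act before the members, 1 was higher and 4 lower in R+ than in R-, and 5 were higher and 2 lower in C+ than in C- (3 lower with the block, which added Ptch1, adjusted p = 0.00989). Nkx2-2, the homeodomain factor of the progenitor domain that makes serotonin neurons, was higher in both, with 2592 in R+ against 373 in R-, and 2203 in C+ against 113 in C-. Its differences were 2.77 ± 0.18 and 4.14 ± 0.18. Shh, the secreted signal of the floor plate, and Foxa2, a forkhead factor of the same region, were higher in C+ (2.59 ± 0.36 and 2.46 ± 0.34). Between R+ and R- Shh did not pass (-0.17 ± 0.36, adjusted p = 0.901) and Foxa2 was lower (-1.57 ± 0.34, adjusted p = 0.0114). The repressor Nkx6-1 was likewise lower in R+ (-1.74 ± 0.38) and higher in C+ (2.11 ± 0.38). Gli2, which carries the hedgehog signal in progenitors, was lower in both (-2.83 ± 0.38 and -3.00 ± 0.38).

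Among 13 genes downstream of the members, 10 were higher in R+ than in R- and 9 higher in C+ than in C- (10 with the block, which added Qdpr, adjusted p = 0.00102), with none lower. The list holds genes that make, carry, take up and break down serotonin, genes of its synthesis cofactor, and receptors Htr1a and Htr1b. The sort itself selects serotonin neurons, so these counts do not stand apart from it. Some of these genes also had signal in YFP-negative cells, such as Qdpr (1844 in R-, 1458 in C-) and Maoa (620 and 625). Tph2 averaged 46 in R- and 25.7 in C-. Tph2, the rate-limiting enzyme, was 1.50 ± 0.35 higher in R+ than in C+ (adjusted p = 0.0298), Ddc 1.22 ± 0.14 (adjusted p = 0.000239) and Slc18a2 1.59 ± 0.18 (adjusted p = 0.000206). These 3 of 13 genes passed between R+ and C+, all higher in R+, and none of the 5 transcription factors did. Over all genes 1.79% were higher and 3.08% lower in R+, so 0 of 5 is near the share over all genes. With the replicate number as a block 5 targets were higher and 1 lower, and 1 factor was higher (St18) and 1 lower (Gata2). The block called 8.45% of all genes higher and 10.9% lower in R+. Whether genes and factors differ in this was not tested.

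Partner proteins of the members fell on both sides. Of 19 measured cofactor genes 2 were higher and 5 lower in R+ than in R- (7 lower with the block, which added Hdac1 and Rcor1), and 2 were higher and 6 lower in C+ than in C-. The list's median difference was -0.01 rostrally and -0.21 caudally, where all genes had -0.01 and -0.04. Zfpm1 (FOG1), a zinc finger partner of GATA factors, was higher in both, at 2213 in R+ against 523 in R-, and at 1724 in C+ against 398 in C- (2.08 ± 0.29 and 1.96 ± 0.29, adjusted p = 0.000432 and 0.000639). Its relative Zfpm2 was lower in both (-2.12 ± 0.19 and -1.19 ± 0.19). Lmo1, a LIM-only protein that binds the same adaptors as Lmx1b, was also lower in both (-2.48 ± 0.24 and -1.14 ± 0.24). Lmo4 was lower in C+ than in C- (-1.69 ± 0.30, adjusted p = 0.0025) and differed by 0.22 ± 0.30 between R+ and R- (adjusted p = 0.823). Ssbp2, a stabiliser of LIM adaptor complexes, was 0.74 ± 0.12 and 0.73 ± 0.12 higher in the YFP-positive cells. Ldb1, the LIM adaptor itself, did not pass in either domain (0.17 ± 0.64 and -0.83 ± 0.64, adjusted p = 0.947 and 0.555).

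**Figure D4:**
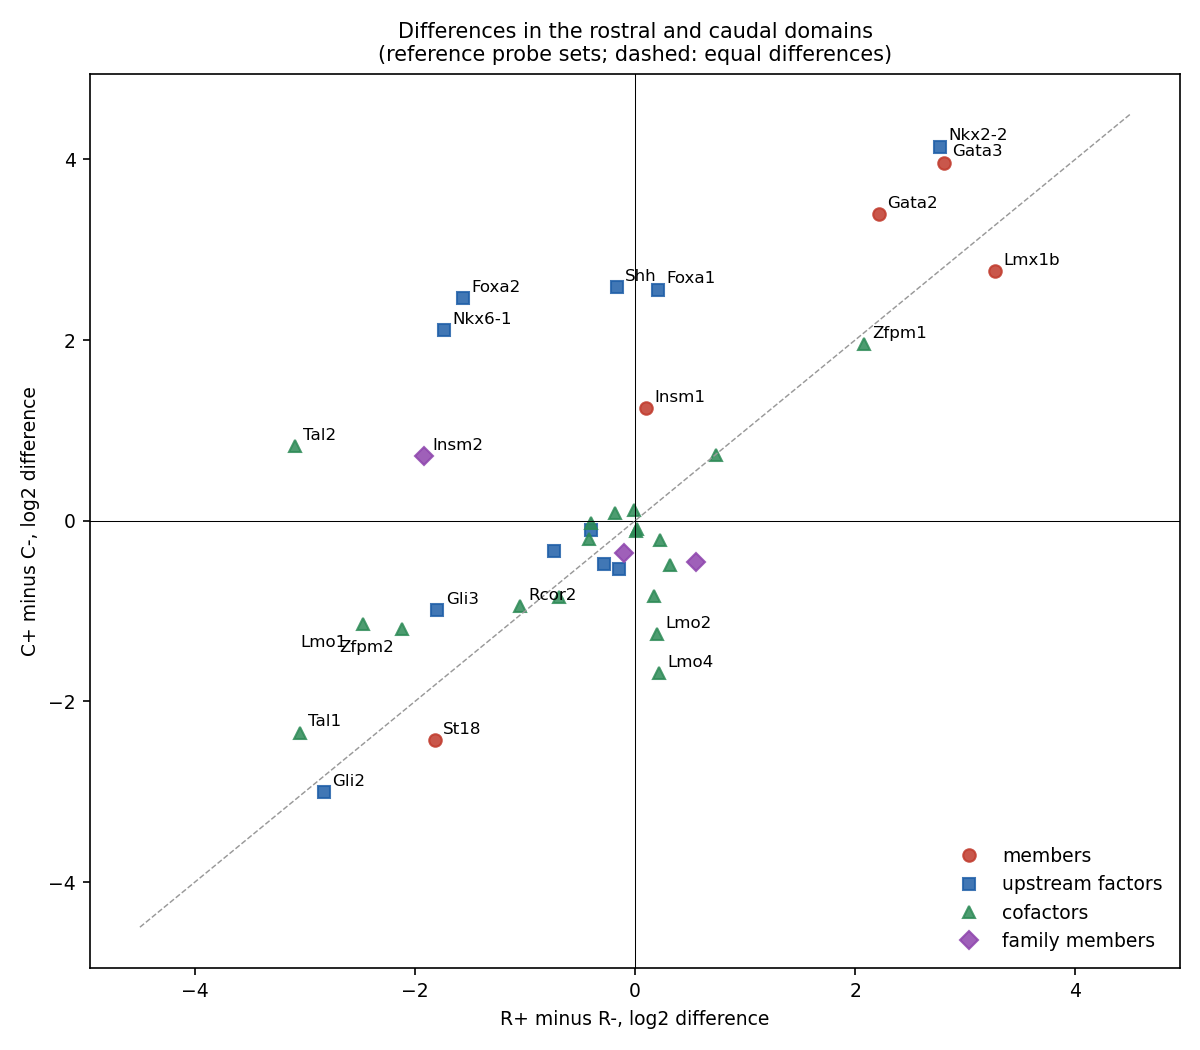
Log2 difference between R+ and R- (horizontal axis) against that between C+ and C- (vertical axis) for the reference probe sets of the members (red circles), upstream factors (blue squares), cofactors (green triangles) and family members (purple diamonds); the dashed line marks equal differences. Gata2, Gata3 and Nkx2-2 lie above the line in the upper right, Lmx1b and Zfpm1 slightly below it, and St18 in the lower left with Gli2 and Tal1.

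Markers of further cell types in which the members are known were mostly lower in the YFP-positive cells or did not pass. All 5 dorsal excitatory neuron markers were lower in R+ and in C+, with a summed signal of 556 to 1011 in R+ and 1230 to 1829 in C+. Of 4 measured midbrain dopamine neuron markers, another Lmx1b-expressing type, 2 were lower in R+ (Th and Nr4a2) and 2 in C+, and 0 were higher. All 4 red blood cell markers were lower in both, and their summed signal was 8693 to 15580 in R+ and 45070 to 59141 in R-, and 4792 to 8626 in C+ and 40427 to 44926 in C-. Of 3 measured endothelial markers, cells that can express Gata2, none passed between R+ and R- and 2 were lower in C+. Among 8 macrophage markers 1 was higher in R+ (Lyz2, 2.47 ± 0.54) and 1 lower in C+ (Csf1r, -0.94 ± 0.22), where with the block Lyz2 was also higher (1.47 ± 0.54, adjusted p = 0.0156). Of 4 cranial motor and sympathetic neuron markers Isl1 was lower in both (-1.76 ± 0.25 and -2.26 ± 0.25). Of 3 roof plate and isthmus markers 1 was lower in R+ (2 with the replicate block) and 2 in C+.

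Genes with the most similar course to each member over the 12 arrays were ranked by Pearson correlation of log2 signals among 7988 genes with a group mean over 450. These correlations mostly follow the group differences, since the points share arrays and groups, and they are given as a description. Lmx1b was followed most closely by Jph4, Igfbp5, C130021I20Rik, Kndc1 and Prkar1b (r = 0.973 to 0.985). For Gata2 the genes were Tram1l1, Peg3, Prmt2, Zcchc12 and Ahi1 (r = 0.984 to 0.995). For Gata3 they were Ccdc184, Negr1, Tram1l1, Nkx2-2 and, ranked last of these 5, Gata2 itself (r = 0.977 to 0.991). Insm1 had a looser set, Zfp40, Tmem176a, Vat1l, Cers4 and E2f6 (r = 0.876 to 0.915). St18 ran with Nek2, a mitotic kinase, Ezr, which links membrane and actin, the neuronal factor Ebf1, Prmt8 and the adhesion molecule Vcam1 (r = 0.973 to 0.976). Ebf1 reached 2436 in R- and 2178 in C- but only 595 in R+ and 349 in C+, the same order of groups as St18.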

How the data were processed

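RNA of sorted R+, R-, C+ and C- cells was measured on 12 arrays, 3 per group, with groups and replicate numbers taken from the sample titles. The values are signal intensities on a linear scale that the authors made with MAS5, per the submitters' processing notes. The sources used here give no MAS5 version, settings or detection calls. Of 45101 probe sets 64 controls were left out, 34945 had 1 symbol, 932 several and 9160 none; Entrez numbers matched 34741 to the RefSeq table of GRCm38.p6 and changed 0 symbols. No build is stated for the array; strands, neighbours and the 2 promoter stretches with coordinates come from RefSeq GRCm38.p6 and were matched by symbol.

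The signals were transformed to log2(signal + 10), 10 being their 10th percentile, and 26061 probe sets were kept (22030 with 1 symbol, 12845 genes). The difference is understated for dim genes. All 12 arrays were fitted with 1 mean per group in limma 3.58.1 (R 4.3.3), eBayes with a trend, two-sided, Benjamini-Hochberg at 0.05 over all kept probe sets per comparison. A gene's reference probe set was its kept one with the highest mean, with _x_at probe sets used only as a last resort. The procedure was tested on simulated data with independent noise on each array, so not with deviations shared by arrays of the same replicate number.

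Replicate numbers pair the arrays: deviations from group means correlated at 0.169 to 0.597 in all 18 same-numbered pairs of arrays from different groups (other 36 pairs: -0.468 to 0.318). The fit without the block is the main one; blocked values stand beside results quoted here whose call they change. Alternatives were other offsets, filters, scalings, probe set rules, variance models and subsets of arrays. The members, lists and rules were chosen with earlier results of these data known. Named genes were members, list genes and the 5 genes most correlated with each member; which list genes are quoted was chosen after their values were seen. No array was identical to another.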

Additional observations from a re-analysis of the deposited data

Results flagged for a closer look

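The YFP difference of several genes depended on the domain, by the limma test of (R+ minus R-) minus (C+ minus C-). Among the members this was Gata2, by probe set 1450333_a_at, at -1.18 (adjusted p = 0.0291), a larger difference in the caudal domain. This call was lost under 14 of 26 alternatives, and the other Gata2 probe set did not pass (-0.68, adjusted p = 0.956). The ventral patterning genes that passed were Shh at -2.75, Nkx2-2 at -1.37, Nkx6-1 at -3.85, Foxa1 at -2.35 and Foxa2 at -4.03 (adjusted p = 0.00125 to 0.0281). Ddc, the decarboxylase of serotonin and dopamine synthesis, was at -2.21 (adjusted p = 0.000113) and had a signal of 1458 in R- against 126 in C-. Tal2 was at -3.92 and Gad1, an enzyme of GABA synthesis, at -3.00 (adjusted p = 0.0227 and 9.73e-05). Nr4a2, a factor of dopamine neurons, was at -1.91, Dll1 at -1.10 and Dll3 at -1.33 (adjusted p = 0.0037, 0.0375 and 0.0206). The value is signed, so a negative one is not always a larger caudal difference. Nkx6-1 and Foxa2 were lower in R+ than in R- and higher in C+ than in C-. Tal2, Gad1, Dll1 and Dll3 were lower in R+ and did not pass between C+ and C-, with Tal2 at -3.09 and 0.83.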

How the results depend on the processing

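The 40 results on members were recomputed under 27 alternatives, which gave 1037 values; 975 kept their direction and their side of the threshold, 28 lost and 21 gained a call, and 13 changed sign. With the replicate number as a block the probe sets called rose from 1999 to 3740 for R+ against R-, 2136 to 4279 for C+ against C-, 984 to 4327 for R+ against C+, 389 to 1770 for R- against C- and 136 to 419 for the difference of differences. Member genes called went from 0 to 2, 1 to 4 and 1 to 3 in the last 3 of these; the block changed no other call of a member gene. A fit with the brightest probe set per gene called 1 member gene for R+ against C+ and 2 for R- against C-. The mean of probe sets and quantile normalization called 2 for R- against C-. Under the mean of probe sets the difference of differences again called 1 member, Insm1 in place of Gata2. Quantile normalization called 419 probe sets for R- against C-, beside 389 in the main fit. Shares of all genes are not given for the fits by brightest probe set, mean of probe sets or quantile normalization. Whether their member counts exceed such shares was not tested. Equal median signal called 535 probe sets for R+ against C+ and 0 members for the difference of differences. eBayes without a trend called 639 probe sets for R+ against C+ and 81 for the difference of differences, with 0 members there and for R- against C-. Fitting only the groups compared called 523 probe sets for R+ against C+ and 0 members for R- against C-. The beta-actin covariate called 227 and 191 probe sets for R+ against C+ and R- against C-, and 0 members for the latter. The causes were not tested. Equal median signal also moved the share of higher calls from 35.7% to 48.1% for R- against C- and from 36.8% to 26.7% for the difference of differences.

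Leaving out arrays gave 651 to 2229 probe sets for R+ against R-, 670 to 2491 for C+ against C-, 130 to 2624 for R+ against C+, 75 to 472 for R- against C- and 13 to 203 for the difference of differences. Member genes called were 4 in every such fit for R+ against R-, 4 to 5 for C+ against C-, 0 to 1 for R+ against C+, 0 to 3 for R- against C- and 0 to 2 for the difference of differences. The 13 changes of sign were all in differences that had not passed. They were -0.37 for the difference of differences of St18 with the mean of probe sets, and, with the beta-actin covariate between R+ and C+, 0.21 for St18 1436793_at and 0.10 for Insm1 1455865_at. Between R+ and C+, Gata2 1428816_a_at was 0.21 without C+ replicate 1 and 0.18 without replicate 1, where leaving out arrays gave -0.24 to 0.21; Lmx1b was 0.055 without C+ replicate 1, in a range of -0.27 to 0.055. Insm1 1455865_at between R+ and R- was -0.11, -0.22 and -0.08 without R- replicate 1, R+ replicate 2 and R- replicate 3, in a range of -0.22 to 0.26. St18 1436793_at without C- replicate 2 and without replicate 2 was -0.42 and -0.17 between C+ and C-, and -0.11 and -0.13 between R- and C-, in ranges of -0.42 to 1.16 and -0.13 to 1.61. Signals near 107 limit what can be said of the dim probe sets.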

Other observations

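The other genes beside the members were read from the same RefSeq annotation, a choice made after the values of C130021I20Rik had been seen. Mvb12b, the nearest gene on the array on the other side of C130021I20Rik, was 0.53 ± 0.12 higher in R+ than in R- and 0.45 ± 0.12 higher in C+ than in C- (limma adjusted p = 0.0106 and 0.028). Zbtb43, the nearest on the opposite side of Lmx1b, differed by -0.01 ± 0.18 and 0.01 ± 0.18 (adjusted p = 0.994 and 0.984). Rpn1 and Dnajb8 beside Gata2, Ralgapa2 beside Insm1, and Rb1cc1 and Pcmtd1 beside St18 did not pass in either domain (adjusted p = 0.149 to 0.99). A probe set of 4930412O13Rik, which overlaps Gata3 in the annotation on the opposite strand, was dim, with a mean signal of 70 in R+ against 22 in R-, and 47.7 in C+ against 6.33 in C-, and was not tested.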
